A study of Drosophila melanogaster with 6 samples.

Results

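The genes described here are those that the authors' deposited table, a comparison of dFezf1 with WT, places in the category ecdysone_inducible and no other, with reads in at least 1 library. Of the 13727 genes in the authors' deposited table, 64 carry that category alone. Of the 64, 21 are at 0 in every library and 43 are above 0 in the authors' deposited table. The ecdysone receptor genes EcR and usp and the 8 cascade genes Eip74EF, Eip75B, Eip78C, Eip93F, Hr3 (Hr46), Hr51, ftz-f1 and br were left out, which removed 1 of the 43, Eip93F, and left 42 members. The member nearest the limit, the yolk protein gene Yp1, has a mean normalized count of 2.03 over all libraries in the authors' deposited table, and the genes just outside it have 0. All 42 members were among the 9387 genes with an adjusted p in the authors' deposited table, the tested genes.

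Ecdysone is the steroid hormone that times moulting and metamorphosis in insects. It is made in the prothoracic gland by a chain of cytochrome P450 enzymes, is converted to its active form in other tissues, and acts through the nuclear receptor pair EcR and Ultraspiracle, which switches on a first set of transcription factor genes and then larger sets of tissue-specific target genes. In pupae its pulses set off the death of larval tissues, autophagy in the fat body and salivary gland, the eversion of imaginal discs and the remodelling and maturation of neurons.

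The cells were L3 neurons of the lamina, where the fly's photoreceptors make their first synapses, sorted by flow cytometry as fluorescently labelled cells from pupal optic lobes at 24 h after puparium formation. One group of 3 samples is WT, with an FRT40 chromosome named in the titles. The other group of 3 carries dFezf1, an allele of dFezf, the gene also known as earmuff (erm), which encodes a zinc finger transcription factor of L3 neurons. The labels name no driver, label or sex for either group, and the genotype of the WT samples is given no further than FRT40. WT titles are dated in November and dFezf1 titles in December, so the dates and the genotypes cannot be told apart, although the design text places library preparation and sequencing of all samples together.

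The design asks how these genes differ between L3 neurons of the 2 genotypes. Values are those of the authors' deposited table: a group mean abundance for WT and for dFezf1, whose unit is not given and which behaves as a length-scaled unit, the mean of the normalized counts over the libraries, a log2 fold change shrunken toward 0, the standard error (SE) of that change, and an adjusted p. Values per library were not used, so each group mean stands without an SD. The SE belongs to the shrunken change and is no direct measure of the spread between what the design text calls biological replicates. As a check of the label, erm has group means of 55.1 in WT and 49.2 in dFezf1 in the authors' deposited table, and the 5 pan-neuronal markers, all above 0, sum to 206 and 350, none of them called. The allele's position in the transcript is not given in the labels, so the erm level does not test it. In the authors' deposited table the 5 glial markers sum to 1.25 in WT and 5.50 in dFezf1, mostly from Gs2 at 0.262 and 4.08. Eaat1 and wrapper had lower means in dFezf1, and none of the 5 was called. Of 4 photoreceptor genes, ninaE and trp are at 0 in every library, and chp is at 0 in WT and 0.0118 in dFezf1. The remaining gene of that list, norpA, has 9.55 in WT and 15.9 in dFezf1 and was not called. The part of photoreceptor RNA in these samples was not tested. In sorted bulk samples, fewer cells that express a gene and less of its RNA per cell cannot be told apart.

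Most ecdysone-inducible genes did not pass the test between genotypes, and the 4 that did were all higher in dFezf1. For 3 of the 4, Cyp6a2, Eip63F-1 and shd, the WT mean was listed at 0, so as members they could only be higher. The 4 were Cyp6a2, a P450 enzyme known from insecticide metabolism; Eip63F-1, a calcium-binding protein of the EF-hand type; Lpt, a chromatin protein; and shd, the P450 enzyme that turns ecdysone into its active form. At an adjusted p under 0.05, 4 members were higher, 0 were lower and 38 were not called (the authors' deposited table). The 4 calls are 9.52% of members, beside 6.82% of all tested genes called in either direction, 4.33% called higher and 2.49% called lower (the authors' deposited table). The median log2 fold change of members was 0.05 with quartiles of -0.39 and 0.52, beside a median of 0.03 with quartiles of -0.44 and 0.51 over all tested genes, all from the authors' deposited table. Among the members, 23 log2 fold changes were positive and 19 negative, 54.8% positive against 51.5% of all tested genes (the authors' deposited table). Over the 33 members above 0 in both groups the median was -0.00 (the authors' deposited table). The median position of the category therefore lay close to that of the transcriptome.

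The levels spanned a wide range. In WT, 3 members had a group mean above 100, 19 lay from 1 to 100, 13 lay between 0 and 1, and 7 were listed at 0 (the authors' deposited table). The actin genes Act5C and Act42A and the small heat shock gene Hsp27 made up 91.8% of the members' summed abundance in WT and 90.1% in dFezf1 (the authors' deposited table). No other member exceeded 28.2 in WT (the authors' deposited table).

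**Figure D1:**
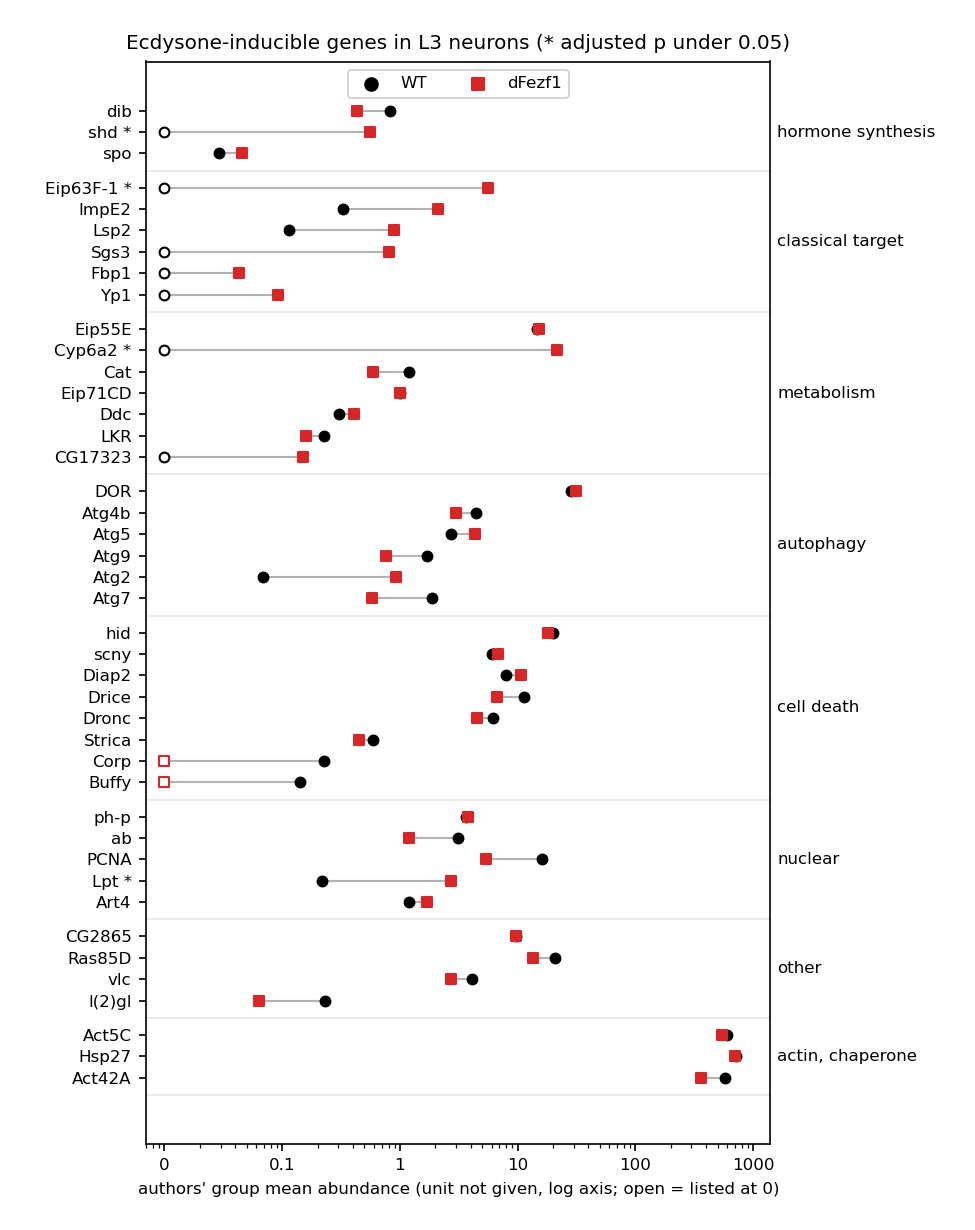
Group mean abundance in the authors' deposited table for the 42 members, WT as black circles and dFezf1 as red squares, on a log axis whose left end stands for 0 (open symbols), with members grouped by role and no error bars because the means carry none. Of the 7 members listed at 0 in WT, Cyp6a2 reaches 21.6 and Eip63F-1 reaches 5.55 in dFezf1, while the 3 abundant genes at the bottom lie between 365 and 710 in both groups.

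Genes of hormone synthesis and inactivation were low or at 0. The category holds 6 of them, and sad, phm (now phtm) and the hormone-inactivating enzyme gene Cyp18a1 were at 0 in every library of the authors' deposited table. The members dib and spo, which encode P450 enzymes of ecdysone synthesis, had group means of 0.824 and 0.0290 in WT and 0.432 and 0.0456 in dFezf1 (the authors' deposited table). Neither passed the test, with adjusted p of 0.933 for dib and 0.943 for spo (the authors' deposited table). On the opposite strand, wit covers 400 of the 1975 exon bases of dib, and l(3)psg2 covers 308 of the 2489 of spo. The part of wit and l(3)psg2 reads in these low values was not tested.

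The third member of this group, shd, acts outside the prothoracic gland and was called higher in dFezf1. It lies on chromosome 3L, 14614458 to 14622205 on the plus strand of build BDGP6. Its group mean was listed at 0 in WT and at 0.558 in dFezf1, with a mean normalized count of 28.1 and an adjusted p-value of 4.64e-07 (the authors' deposited table). The shrunken log2 fold change was 0.54 with an SE of 0.59, a 95% interval of -0.61 to 1.69 (the authors' deposited table). The deposited test statistic of shd was 5.81, whereas its fold change divided by its SE is 0.92 in the authors' deposited table, so the call rests on the p-value and not on the interval. Calls of this kind were frequent: 26.4% of the tested genes listed at 0 in WT were called higher, and 60.1% of those with a mean normalized count from 14 to 56, a range around that of shd (the authors' deposited table). With a 95% interval that excludes 0 also required, 3 members were called, beside 3.82% of all tested genes (the authors' deposited table).

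As grouped here, classical ecdysone targets, named for their induction in salivary glands, fat body, epidermis or discs, were the least represented role group. Of 20 such genes in the category, 14 were at 0 in every library of the authors' deposited table: Eig71Ea to Eig71Ek of 1 late puff, the cuticle genes Edg78E and Edg84A, and ImpE3. The other 6 of the 20 are members, Eip63F-1, ImpE2, Lsp2, Sgs3, Fbp1 and Yp1. They summed to 0.442 in WT and 9.49 in dFezf1, of which Eip63F-1 alone made up 5.55 (the authors' deposited table). Eip63F-1, Sgs3, Fbp1 and Yp1 were listed at 0 in WT, so as members they could only be higher in dFezf1. ImpE2 and Lsp2, above 0 in both groups, also had the higher mean in dFezf1. The low sums and the direction depend on the grouping, since Eip55E, Eip71CD and ImpL3, with names of the same kind, were counted as metabolic genes. Eip55E had 14.6 in WT and 15.3 in dFezf1, and Eip71CD had a log2 fold change of -0.00 (the authors' deposited table). ImpL3 was at 0 in every library. Beside 6.82% of all tested genes, 1 of the 6 members grouped as classical targets passed the test (the authors' deposited table).

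That gene was Eip63F-1, on chromosome 3L, 3909973 to 3935617 on the minus strand. It rose from a group mean listed at 0 in WT to 5.55 in dFezf1, with a mean normalized count of 615 and an adjusted p-value of 8.26e-19 (the authors' deposited table). No fold is given against a group at 0. An annotated antisense RNA, asRNA:Eig63F-2, covers 132 of the 3545 exon bases of Eip63F-1 and has no row of its own, and the sources used here do not say whether counting used strand.

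The other classical targets remained low in both groups and did not pass the test. ImpE2, which encodes a secreted protein of everting imaginal discs, had group means of 0.327 in WT and 2.10 in dFezf1, a log2 fold change of 0.89 with an SE of 0.77 and an adjusted p-value of 0.634 (the authors' deposited table). The larval serum protein gene Lsp2 had 0.115 in WT and 0.892 in dFezf1, at an adjusted p of 0.623 (the authors' deposited table). An annotated antisense RNA, asRNA:CR11538, covers 2096 of the 2477 exon bases of Lsp2. The salivary glue gene Sgs3 was listed at 0 in WT and at 0.813 in dFezf1, at an adjusted p of 0.376 (the authors' deposited table). The fat body receptor gene Fbp1 and the yolk protein gene Yp1 were listed at 0 in WT and at 0.0427 and 0.0923 in dFezf1 (the authors' deposited table).

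Markers of the tissues that make these proteins, some of them category genes counted above, had higher sums in dFezf1. The sum of the pan-neuronal markers was higher too, 206 in WT and 350 in dFezf1 (the authors' deposited table). The 8 fat body markers, 3 of them members, summed to 0.422 in WT and 3.67 in dFezf1, with 4 at 0 in WT (the authors' deposited table). Lsp1alpha went the other way, from 0.0232 in WT to 0 in dFezf1, and was the 1 at 0 in dFezf1 (the authors' deposited table). One of the 8, Fbp2, rose from 0 in WT to 1.57 in dFezf1, at an adjusted p of 4.58e-09 (the authors' deposited table). Its 95% interval, -0.56 to 1.91 on the log2 scale at a mean normalized count of 51.0, includes 0, so this call is of the same kind as that of shd (the authors' deposited table). The 6 salivary gland markers summed to 8.85 in WT and 29.8 in dFezf1, mostly from Sgs7 at 7.34 and 28.8 (the authors' deposited table). Sgs8, the only other of these markers above 0 in WT, went the other way, to 0 in dFezf1 (the authors' deposited table). None of the 6 was called, and Sgs5 was at 0 in every library (the authors' deposited table). Of the 4 epidermal markers, 3 were at 0 in every library of the authors' deposited table, among them the category genes Edg78E and Edg84A. The part of RNA from such tissues in the members' values was not tested.

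Metabolic genes held the member with the lowest adjusted p. Cyp6a2 rose from a group mean listed at 0 in WT to 21.6 in dFezf1, with a mean normalized count of 737 and an adjusted p-value of 7.61e-19 (the authors' deposited table). It lies on chromosome 2R, 6779749 to 6781491 on the minus strand. That interval falls wholly within Epac, which runs from 6759715 to 6798941 on the same strand, and the annotation gives them no shared exon base. Epac, which encodes an exchange factor activated by cyclic AMP, had group means of 0.616 in WT and 32.3 in dFezf1, but a log2 fold change of 1.14 with an SE of 0.74 and an adjusted p-value of 0.163 (the authors' deposited table). The part of Epac reads in the Cyp6a2 value was not tested.

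P450 genes gave calls in both directions. Of 81 genes with P450 names of the form of Cyp6a2, 40 were at 0 in every library, 37 were tested, 2 were higher and 2 were lower (the authors' deposited table). Over all tested genes, 4.33% were called higher and 2.49% lower (the authors' deposited table). Beside Cyp6a2, Cyp6g1 rose from 0 in WT to 1.48 in dFezf1 at an adjusted p of 0.00144 (the authors' deposited table). Cyp304a1 fell from 0.584 in WT to 0 in dFezf1 at an adjusted p of 1.85e-06, and Cyp310a1 fell from 2.68 to 0 at an adjusted p of 0.00306 (the authors' deposited table). The 95% intervals of these 2 lower calls, -1.69 to 0.61 for Cyp304a1 and -2.77 to 0.16 for Cyp310a1, include 0, as that of shd does (the authors' deposited table). With an interval that excludes 0 also required, the 2 higher P450 calls are left.

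Among the other 6 metabolic members none was called. Eip55E (now Cth), which encodes a cystathionine gamma-lyase, had group means of 14.6 in WT and 15.3 in dFezf1 and a log2 fold change of 0.09 with an SE of 0.44 (the authors' deposited table). The catalase gene Cat had 1.19 in WT and 0.589 in dFezf1, at an adjusted p of 0.836 (the authors' deposited table). Eip71CD (now MsrA), a methionine sulfoxide reductase gene, had a log2 fold change of -0.00 with an SE of 0.81 (the authors' deposited table). The dopa decarboxylase gene Ddc, LKR and the glycosyltransferase gene CG17323 (now Ugt36D1) were each below 1 in WT and in dFezf1 (the authors' deposited table). The category's 2 other metabolic genes, Cyp4e2 and the lactate dehydrogenase gene ImpL3 (now Ldh), were at 0 in every library of the authors' deposited table.

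All 6 autophagy genes of the category were above 0 in both groups, and none was called. DOR (now TP53INP), which encodes a coactivator of the ecdysone receptor with a role in autophagy, was the most abundant, at 28.2 in WT and 31.3 in dFezf1, with a log2 fold change of 0.28, an SE of 0.40 and an adjusted p-value of 0.834 (the authors' deposited table). The protease gene Atg4b had a log2 fold change of -0.33 from a WT mean of 4.46, and Atg5, part of the conjugation machinery of the autophagosome membrane, had 2.69 and 4.31 (the authors' deposited table). The membrane protein gene Atg9 had 1.69 and 0.764 (the authors' deposited table). The log2 fold changes of Atg5 and Atg9 were 0.73 and -0.08, and the SEs of Atg4b, Atg5 and Atg9 were 0.64, 0.66 and 0.70 (the authors' deposited table).

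Atg2 and Atg7 lay apart from these in opposite directions without passing the test. Atg2, which encodes a lipid transfer protein of the growing autophagosome, had 0.0693 in WT and 0.928 in dFezf1, a 13.4-fold ratio of means (the authors' deposited table). Its log2 fold change of 1.95 had an SE of 0.80 and a 95% interval of 0.37 to 3.52, at an adjusted p of 0.123 (the authors' deposited table). Atg7, which encodes the activating enzyme of both conjugation steps, had 1.86 in WT and 0.583 in dFezf1, a log2 fold change of -0.96 with an SE of 0.81 and an adjusted p-value of 0.656 (the authors' deposited table). Of 19 tested genes with an Atg name, 0 were called in the authors' deposited table, beside 6.82% of all tested genes. Their lowest adjusted p was 0.122, for Atg18a, with means of 1.60 in WT and 0.126 in dFezf1. Atg8a, a common marker of autophagosomes, had 74.4 and 65.8 (the authors' deposited table).

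Likewise, none of the 8 cell death genes was called, with a lowest adjusted p of 0.556 (the authors' deposited table). The pro-apoptotic gene hid, which removes the block on caspases, had 19.8 in WT and 18.1 in dFezf1, a log2 fold change of 0.02 with an SE of 0.31 and a 95% interval of -0.58 to 0.63 (the authors' deposited table). That interval is narrower than a 2-fold change in either direction. The caspase genes Dronc, Drice and Strica, an initiator, an executioner and a further long-prodomain caspase, had 6.18, 11.3 and 0.591 in WT and 4.49, 6.65 and 0.448 in dFezf1 (the authors' deposited table). Diap2, which encodes an inhibitor of apoptosis, had 7.91 and 10.6, and the deubiquitinase gene scny had 6.12 and 6.86 (the authors' deposited table). The Bcl-2 family gene Buffy and the gene Corp had 0.142 and 0.225 in WT and were listed at 0 in dFezf1, with adjusted p of 0.652 and 0.556 (the authors' deposited table). Of 6 tested caspase genes, 0 were called, beside 6.82% of all tested genes (the authors' deposited table).

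Of the nuclear members, 1 of 5 was called, too few genes to set against the 6.82% of all tested genes called. Lpt encodes the partner of Trr in a COMPASS-like complex, which methylates histone H3 and serves as a coactivator of the ecdysone receptor. It lies on chromosome 2R, 23898561 to 23903661 on the plus strand. Lpt rose from a group mean of 0.218 in WT to 2.72 in dFezf1, a 12.5-fold ratio of means (the authors' deposited table). The log2 fold change of Lpt was 2.75 with an SE of 0.71, a 95% interval of 1.37 to 4.14, a mean normalized count of 319 and an adjusted p-value of 0.00194 (the authors' deposited table). Lpt was the 1 called member of the 33 with reads in both groups. Its partners did not pass the test: trr had 0.509 in WT and 1.88 in dFezf1 at an adjusted p of 0.438, Utx had 6.90 and 5.86 at an adjusted p of 0.933, and ptip had 1.28 and 1.42 at an adjusted p of 0.994 (the authors' deposited table).

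PCNA, the sliding clamp of DNA replication, had 16.0 in WT and 5.38 in dFezf1, and a log2 fold change of -0.91 with an SE of 0.80 and an adjusted p-value of 0.678 (the authors' deposited table). The BTB zinc finger gene ab had 3.11 and 1.18 in the authors' deposited table, at an adjusted p of 0.701. Art4, an arginine methyltransferase gene, had 1.18 in WT and 1.71 in dFezf1 (the authors' deposited table). The Polycomb gene ph-p had 3.65 and 3.76 and its tandem copy ph-d had 3.51 and 3.84 (the authors' deposited table). Reads of near-identical copies such as ph-p and ph-d may be split between them, as may those of the actin genes and of the yolk protein genes.

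The actin genes and Hsp27 were the 3 members with the most reads. Act5C, which encodes a cytoplasmic actin, had group means of 597 in WT and 546 in dFezf1 and a log2 fold change of -0.05 with an SE of 0.22 (the authors' deposited table). Hsp27 had 710 in WT and 709 in dFezf1 and a log2 fold change of 0.12 with an SE of 0.25 (the authors' deposited table). Act42A, which encodes the other cytoplasmic actin, had 574 and 365, a log2 fold change of -0.61 with an SE of 0.34 and an adjusted p-value of 0.421 (the authors' deposited table). Neither the 6 actin genes tested nor Hsp22, Hsp23, Hsp26 and Hsp27 had a call, beside 6.82% of all tested genes (the authors' deposited table).

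The last 4 members have no role in common. The GTPase gene Ras85D had 20.9 in WT and 13.4 in dFezf1, with a log2 fold change of -0.64, an SE of 0.45 and an adjusted p-value of 0.569 (the authors' deposited table). CG2865 had 9.61 and 9.71, vlc had 4.11 and 2.71, and the cell polarity gene l(2)gl had 0.232 and 0.0639 (the authors' deposited table). None was called.

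**Figure D2:**
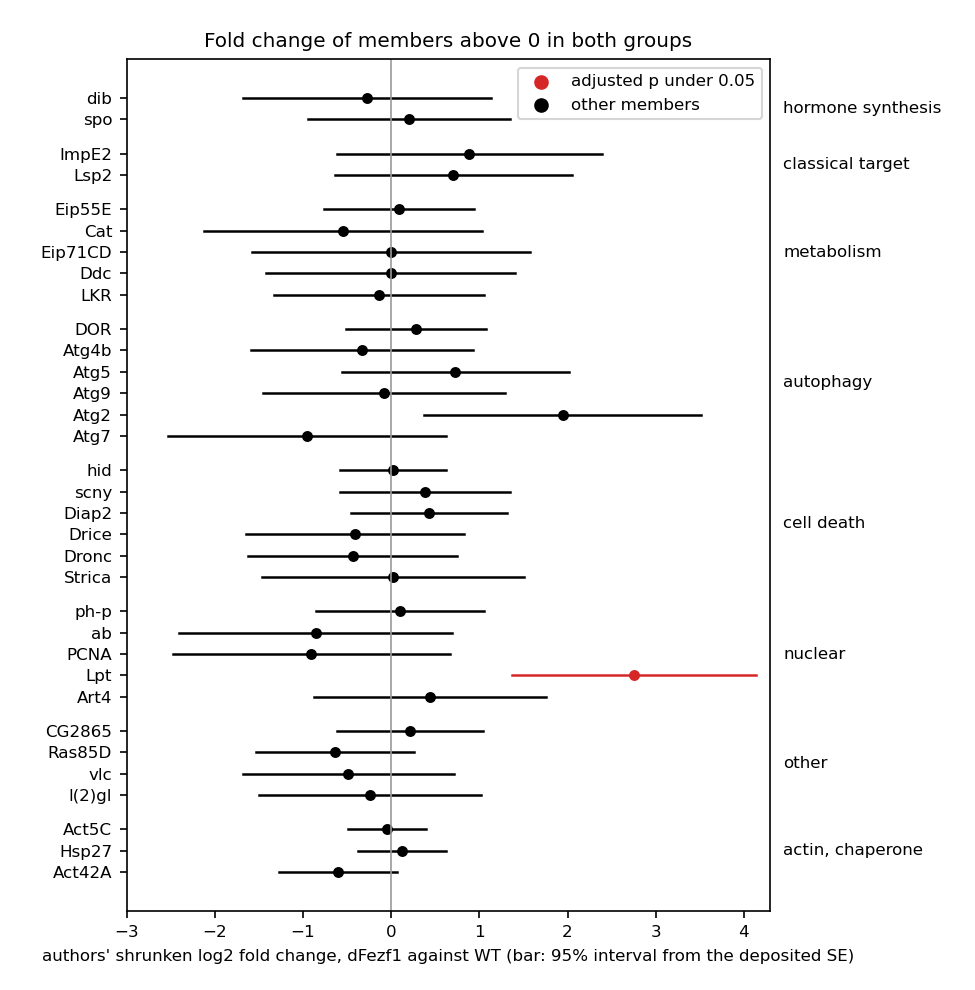
Shrunken log2 fold change of dFezf1 against WT in the authors' deposited table for the 33 members above 0 in both groups, with bars for the 95% interval from the deposited SE and members grouped by role. Lpt, in red, is the 1 called gene at 2.75; the interval of Atg2, 0.37 to 3.52, also excludes 0, although its adjusted p is 0.123.

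The intervals around members that were not called were narrowest at the highest read counts, but did not widen steadily as counts fell. The 9 uncalled members with 1000 or more normalized counts on average had log2 fold changes from -0.64 to 0.39 and SEs from 0.22 to 0.49 (the authors' deposited table). Their 95% intervals all stayed within a 4-fold change, and those of 3, Act5C, Hsp27 and hid, stayed within a 2-fold change (the authors' deposited table). The 14 uncalled members from 100 to 1000 had log2 fold changes from -0.96 to 1.95 and SEs from 0.44 to 0.81 (the authors' deposited table). Of these 14, the intervals of 8 stayed within a 4-fold change and that of 1 within a 2-fold change (the authors' deposited table). For the 15 under 100, the intervals of 13 stayed within a 4-fold change and that of none within a 2-fold change (the authors' deposited table). The median SE was 0.40 at 1000 or more, 0.66 from 100 to 1000 and 0.61 under 100 (the authors' deposited table). These intervals come from the shrunken estimates, and shd shows that the deposited test can call a gene whose interval includes 0. The SEs of Yp1, Sgs3 and shd were 0.58, 0.59 and 0.59 at mean normalized counts of 2.03, 11.7 and 28.1. The intervals under 100 counts are therefore no measure of how well a change was bounded.

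By the ratio of group means, 23 of the 33 members above 0 in both groups lay within 2-fold, 69.7% against 59.9% of the 7970 tested genes of that kind (the authors' deposited table). A ratio of at least 2-fold higher in dFezf1 was seen for 4, Lpt, Atg2, ImpE2 and Lsp2, and of at least 2-fold lower for 6, PCNA, ab, Atg7, Atg9, Cat and l(2)gl (the authors' deposited table). Of these 10, only Lpt passed the test.

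**Figure D3:**
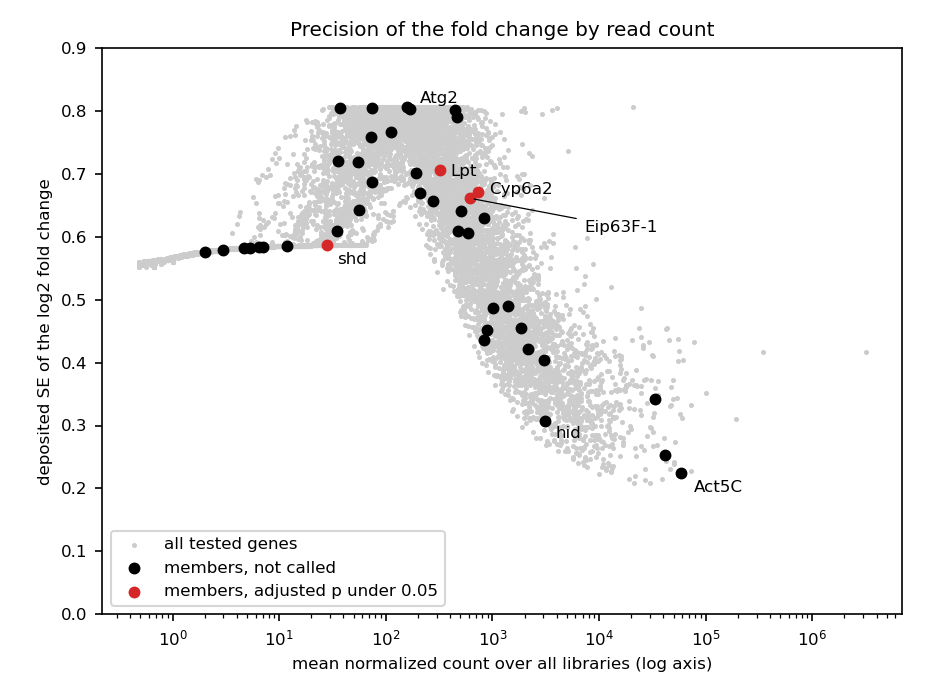
Deposited SE of the log2 fold change against the mean normalized count over all libraries (log axis) in the authors' deposited table, with all 9387 tested genes in grey, uncalled members in black and called members in red. The SE of shd, 0.59 at a count of 28.1, lies on the lower edge of the grey cloud, and abundant members such as Act5C reach 0.22.

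The members do not sit together in the genome. Of the 41 with a position in the annotation, 4 lie on 2L, 11 on 2R, 16 on 3L, 4 on 3R and 6 on X, whereas 19.2% of tested genes lie on 3L. Atg7 and Eip55E, separated by 2873 bases on 2R with 1 gene between them, and Act42A and Strica, separated by 4621 bases with 1 gene between them, were the closest pairs. Neither pair held a called gene. Annotated features overlapped 19 members, and 13 overlapping genes had a row in the authors' deposited table. Of these 13, cmet had no adjusted p and 0 were called, beside 6.82% of all tested genes.

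Genes of the hormone pathway that are not members gave calls in other places. Of 41 tested, 8 were higher and 1 was lower in dFezf1, with a median log2 fold change of 0.45 (the authors' deposited table). The 8 are 19.5%, beside 4.33% called higher and a median of 0.03 over all tested genes (the authors' deposited table). These included mld, a zinc finger gene needed for ecdysone synthesis, which rose from 0.260 to 4.23 at an adjusted p of 0.0065 (the authors' deposited table). Of the 9 genes for the receptor and its partners, 0 were called in the authors' deposited table, and the hormone importer gene Oatp74D had 3.11 in WT and 4.63 in dFezf1. Of the 8 cascade genes left out here, Hr51 was higher and Eip78C was lower, and the 95% interval of Hr51, -0.61 to 1.69, includes 0 (the authors' deposited table). Among 11 tested further targets, crol, vri, Blimp-1, mamo and chinmo were higher in the authors' deposited table, none of them a member. These lists were written with earlier results of these data known and do not test whether the pathway differs from other genes.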

How the data were processed

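Total RNA of sorted L3 neurons (3 WT and 3 dFezf1 samples) was extracted with a column kit and made into Smart-seq2 cDNA libraries by Nextera chemistry, per the labels' protocols. FastQC, STAR, Salmon, DESeq2 and build BDGP6 appear without versions in the submitters' processing notes, and the sources used here do not say which tool made which column.

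Per the file headers, the authors' deposited comparison holds a mean normalized count (a signal), group means named wt and mutant (an abundance signal), log2 fold changes with standard errors, a test statistic (a score), p-values and adjusted p-values. Each deposited p-value matches a two-sided normal test of the statistic, in 9755 of 9755 genes within 0.001, and the adjusted p-values are Benjamini-Hochberg values over 9387 genes. In the deposited values, fold change over standard error departs by 1% or more from the statistic in 3798 genes, 17 of them members, so fold changes are shrunken and can be smaller than the group means show. The ratio of mean normalized count to the deposited group means followed exon length across 5738 genes (Spearman 0.951, across genes). In 5 members, the sign of the fold change differs from that of the difference between group means.

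In 2 deposited tables, 12 columns per library carry codes that match no sample label. They were not used, so no depth, count model or left-out replicate is given. The planned count fit was replaced by the authors' own comparison. Intervals are 95% normal intervals (1.96 standard errors). The authors' p-values test the difference between the 2 groups of 3 samples.

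The members, role groups and lists were chosen with earlier results of these data known, and the gene families (P450, Atg, actin, heat shock, caspase, COMPASS) after values were seen. With more than 30 members, every called member and then those with the highest mean normalized count were named until 30. The other 12 members, from l(2)gl to Yp1, were named to account for every member. Fbp2, Sgs7, Sgs8, Gs2, Eaat1, wrapper, mld, trr, Utx, ptip and genes of the families were named after their values were seen. The same holds for the overlapping genes Epac, wit, l(3)psg2 and cmet. Symbols are those of the deposited table, and 41 members matched a current name and position in BDGP6. The adjustment was tested on simulated statistics. Python 3.11.15, pandas 2.3.3, numpy 2.4.6, SciPy 1.17.1 and matplotlib 3.10.9 were used.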

Additional observations from a re-analysis of the deposited data

How the results depend on the processing

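The count of called members, 4, stayed at 4 with an adjusted p under 0.01 and with adjustment over every gene that has a p-value. It was 3 with at least 100 normalized counts on average, 3 with an interval that also excludes 0, 6 of 52 with the receptor and cascade genes put back and 6 of 72 with genes of joined categories added, a choice made after the data were seen. With genes above 0 in both group means alone it was 1, Lpt, because Cyp6a2, Eip63F-1 and shd are listed at 0 in WT and drop out by construction. The interval rule removed shd, and no other member tested under these settings changed its call. The median log2 fold change, 0.05, became 0.01 from group means with a pseudocount of 1 and 0.01 with 0.1, 0.09 in the 26 members with at least 100 normalized counts and -0.00 in the 33 above 0 in both groups. Refits of counts with edgeR or DESeq2, other size factors and leaving out each replicate were not run, since the columns per library match no label. No paired analysis was possible because the columns per library match no sample label, and the labels number no replicates. For members under 100 normalized counts, the deposited standard errors were 0.58 to 0.81.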

Other observations

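A further 38 genes carry the ecdysone category joined with another one in the authors' deposited table, and 30 of them are above 0 and not left out. Of these 30, 2 were higher in dFezf1, crol and svp, and 0 were lower, with a median log2 fold change of 0.18 (the authors' deposited table). The 2 calls are 6.67% of the 30, near the 6.82% called over all tested genes (the authors' deposited table). The orphan nuclear receptor gene svp had group means of 0.0408 in WT and 2.02 in dFezf1, a log2 fold change of 2.08 with an SE of 0.80 and an adjusted p-value of 0.0224 (the authors' deposited table). The zinc finger gene crol had 28.5 in WT and 52.5 in dFezf1, a log2 fold change of 0.95 with an SE of 0.23 and an adjusted p-value of 0.00109 (the authors' deposited table).

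The dopamine and ecdysteroid receptor gene DopEcR had 1.32 in WT and 0.189 in dFezf1, a log2 fold change of -1.83 with an SE of 0.73, and in the authors' deposited table an adjusted p of 0.136, which did not pass the test. At an unadjusted threshold of 0.05, 5 members and 14.2% of all tested genes passed in the authors' deposited table, and 5 is 11.9% of the members.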
